A study of Rattus norvegicus with 20 samples.

Results

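The 10 genes described here serve as markers of pyramidal cells in hippocampal fields CA2 and CA3. Pcp4, Rgs14, Amigo2, Necab2 and Cacng5 stand for CA2, and Bok, Homer3, Nrip3, Plagl1 and Npy2r for CA3. They were listed by symbol as markers known for these fields, with earlier results of these data known. All 10 were found in both count tables, as 10 of 17168 genes.

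Hippocampal mRNA of 20 female rats aged 4 months was sequenced as stranded libraries, with 1 library per rat. The genotype comparison asks how hippocampal expression differs early in the disease model and held 5 wild-type rats (WTNT) and 5 TgF344-AD rats (TGNT), all on plain chow without drug. The treatment comparison asks what co-treatment with 2 drugs changes, and held 4 TGNT rats and 6 TgF344-AD rats (TGTR) whose chow supplied daily, from day 52 of age, diazoxide (DZ, 10 mg/kg) and dibenzoylmethane (DIB, 200 mg/kg). In TgF344-AD rats, on a Fischer 344 background, the prion promoter, which is not restricted to CA2 or CA3 cells, drives the human transgenes APPsw and PS1-ΔE9. The TGNT rats of the treatment comparison are other libraries than those of the genotype comparison, and the tables were normalized separately, so levels were never compared between them. The sample labels name the left hippocampus, whereas the methods of the study name the right one. Each library holds the RNA of hippocampal tissue with all its cells. For any gene below, fewer CA2 or CA3 cells, less RNA per cell and a difference in the tissue sampled cannot be told apart.

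CA2 and CA3 are successive fields of pyramidal cells between the dentate gyrus and CA1. CA3 cells receive the mossy fibres of dentate granule cells and excite each other through recurrent collaterals, a circuit known for the storage and completion of memories. CA2 is a small field that resists the long-term potentiation typical of its neighbours and is needed for social memory, and Rgs14 is among the proteins that hold this potentiation back. Marker genes of these fields can differ along the long axis of the hippocampus, from its dorsal to its ventral pole, so that a marker of a field need not be present in all cells of that field.

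Between rats of a group, the 10 genes did not vary as a CA2 set and a CA3 set. Among Rgs14 and Necab2 of the CA2 markers and Bok, Homer3 and Nrip3 of the CA3 markers, 9 of 10 pairs varied together past the adjusted threshold in the treatment comparison and 5 of 10 in the genotype comparison. With a single rat left out, these counts ran from 5 to 10 in the former and from 4 to 9 in the latter. These 5 genes are singled out because their pairs passed, out of 13 and 5 of all 45 pairs, and 10.2% and 4.72% of other genes also had r of 0.8 or more with Rgs14. Plagl1 ran opposite to Rgs14, Bok, Homer3 and Nrip3 in the treatment comparison. There 7.48% of other genes also had r of -0.8 or below with Plagl1. The 250 bases before the start of transcription are shown for the members of both patterns and for Npy2r. Like Plagl1, Npy2r was highest in rats 3 and 5 among the WTNT rats. Bases are shown only for genes with an entry in the RefSeq promoter table of build GRCr8, in which 8 of the 10 genes were found. Bok and Nrip3 are named only. Capitals mark matches, on either strand, to the GC box GGGCGG, the CRE half-site TGACG, the E-box CAGCTG, the CCAAT box CCAAT or the TATA box TATAAA, and no matches overlapped. The windows are chr17:9268234-9268483 on the minus strand for Rgs14, chr19:64409749-64409998 on the plus strand for Necab2, chr16:19174599-19174848 on the minus strand for Homer3, chr1:9297214-9297463 on the plus strand for Plagl1 and chr2:170203101-170203350 on the minus strand for Npy2r.
Rgs14: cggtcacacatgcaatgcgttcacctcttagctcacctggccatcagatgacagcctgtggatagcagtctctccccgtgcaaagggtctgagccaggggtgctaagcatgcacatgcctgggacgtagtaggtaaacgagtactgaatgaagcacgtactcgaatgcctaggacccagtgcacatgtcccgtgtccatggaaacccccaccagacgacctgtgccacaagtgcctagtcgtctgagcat
Necab2: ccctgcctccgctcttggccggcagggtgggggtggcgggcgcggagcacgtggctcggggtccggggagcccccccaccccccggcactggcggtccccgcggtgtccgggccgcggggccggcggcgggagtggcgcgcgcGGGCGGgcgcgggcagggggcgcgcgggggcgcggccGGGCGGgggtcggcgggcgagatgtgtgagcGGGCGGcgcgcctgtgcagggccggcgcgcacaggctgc
Homer3: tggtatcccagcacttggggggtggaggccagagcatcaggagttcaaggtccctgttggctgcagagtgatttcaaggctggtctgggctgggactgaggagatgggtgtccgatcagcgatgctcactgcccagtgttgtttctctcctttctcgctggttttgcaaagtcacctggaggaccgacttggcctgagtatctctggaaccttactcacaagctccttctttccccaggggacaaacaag
Plagl1: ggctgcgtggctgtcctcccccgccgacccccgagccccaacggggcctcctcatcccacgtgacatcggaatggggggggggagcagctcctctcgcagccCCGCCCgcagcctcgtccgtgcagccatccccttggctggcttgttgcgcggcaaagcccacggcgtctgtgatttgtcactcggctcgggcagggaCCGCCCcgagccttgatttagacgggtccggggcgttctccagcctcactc
Npy2r: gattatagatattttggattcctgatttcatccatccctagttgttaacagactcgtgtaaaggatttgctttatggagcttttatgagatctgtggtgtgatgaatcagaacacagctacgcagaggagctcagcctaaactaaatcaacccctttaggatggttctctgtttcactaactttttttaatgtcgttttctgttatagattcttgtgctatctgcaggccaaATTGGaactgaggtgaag

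Necab2 held 3 GC boxes and 85.6% G and C in its window, and Plagl1 held 2 GC boxes and 70.0% G and C. Among all 33469 promoters of the table, 30.5% held a GC box in the same window. Npy2r, with 38.8% G and C, held 1 CCAAT box, as did 34.0% of all promoters. The windows of Rgs14 and Homer3, with 55.6% and 55.2% G and C, held none of these motifs. The CRE half-site (18.2% of all promoters), the E-box (12%) and the TATA box (12.9%) were in none of the 5 windows. No motif was thus present in every member that varied together. A match or its absence describes these letters only.

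Levels are given in RPM, the authors' unit of reads scaled to library size by TMM factors (a normalization for composition). Estimated counts per library came to between 5848458 and 9926088 in the genotype comparison and between 9215039 and 14175594 in the treatment comparison. In RPM, 1 read equalled 0.102 to 0.171 in the former and 0.0706 to 0.101 in the latter. All 10 genes had reads in every rat. Cacng5 was the thinnest, with 8 to 29 counts per rat in the genotype comparison and 14 to 61 in the treatment comparison, and its values carry the largest counting error. The counts of Rgs14 were fractions in every library, since RSEM divided some of its reads among genes that they fit equally, so its level is less certain than its depth implies. The other 9 genes had whole counts throughout. Transcript lengths were not given, and levels are not compared between genes.

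In the genotype comparison none of the 10 genes separated TGNT from WTNT rats. Rgs14 measured 125, 106, 53.8, 115 and 72.0 RPM in WTNT rats 1 to 5, and 89.5, 90.2, 66.9, 81.8 and 69.4 RPM in TGNT rats 1 to 5. WTNT rats 1, 2 and 4 lay above every TGNT rat and WTNT rat 3 lay below every one. Necab2, whose product binds calcium at neuronal membranes, measured 99.1, 94.8, 69.1, 98.3 and 78.1 RPM in WTNT rats 1 to 5 and 92.8, 76.8, 88.3, 97.3 and 89.3 RPM in TGNT rats 1 to 5. WTNT rats 3 and 5 were again the lowest of their group. Mean levels of Rgs14 were 94.4 ± 30.2 RPM (n = 5, ± SD) in WTNT and 79.6 ± 11.0 RPM (n = 5, ± SD) in TGNT, and the log2 fold change was -0.24 (standard error 0.18, 95% interval -0.63 to 0.15, adjusted p = 1 in edgeR's quasi-likelihood test, exact permutation test p = 0.317). Necab2 came to 87.9 ± 13.5 RPM in WTNT and 88.9 ± 7.64 RPM in TGNT (n = 5 each, ± SD), and differed by 0.02 in log2 (exact permutation test p = 0.905).

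The other CA2 markers gave small differences. Pcp4, a small peptide of neuronal calcium signalling, measured 78.6, 53.3, 54.6, 65.7 and 59.1 RPM in WTNT rats 1 to 5 and 68.9, 49.6, 59.2, 58.7 and 61.9 RPM in TGNT rats 1 to 5. Replicate 1 was the highest in both groups, and the log2 fold change was -0.05 (standard error 0.11). Amigo2, an adhesion molecule with leucine-rich repeats, ranged from 15.1 to 21.2 RPM in WTNT and from 8.49 to 18.8 RPM in TGNT rats. TGNT rats 1, 2 and 4 lay below all WTNT rats in Amigo2, while TGNT rats 3 and 5 lay within their range (log2 fold change -0.26, standard error 0.18, exact permutation test p = 0.222). Cacng5, an auxiliary subunit of AMPA receptors, ranged from 1.27 to 3.17 RPM in WTNT and from 0.999 to 2.67 RPM in TGNT rats (log2 fold change -0.35, standard error 0.31). With a single rat left out, the log2 fold change of Cacng5 ran from -0.53 to -0.19.

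Among the CA3 markers, Bok, a relative of the apoptosis genes Bax and Bak1, measured 47.4, 38.5, 19.9, 45.9 and 27.2 RPM in WTNT rats 1 to 5 and 35.0, 32.6, 22.3, 35.9 and 30.2 RPM in TGNT rats 1 to 5. Homer3, a scaffold of group I metabotropic glutamate receptors, measured 39.4, 30.5, 16.5, 36.9 and 24.9 RPM in WTNT and 29.7, 22.3, 25.5, 31.8 and 26.0 RPM in TGNT rats 1 to 5. Nrip3, named for its likeness to nuclear receptor interacting proteins, measured 1081, 1005, 719, 1064 and 785 RPM in WTNT and 818, 671, 821, 890 and 850 RPM in TGNT rats 1 to 5. In these 3 genes the order of the WTNT rats had the same lower end as for Rgs14, with rat 3 lowest and rat 5 next. The TGNT rats lay inside the range of the WTNT rats in Bok and Homer3, and in Nrip3 all but TGNT rat 2 did. The log2 fold changes were -0.19 for Bok, -0.11 for Homer3 and -0.19 for Nrip3, with standard errors of 0.20, 0.18 and 0.11.

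Plagl1, an imprinted gene of a zinc finger transcription factor, measured 8.45, 5.62, 63.6, 5.97 and 72.3 RPM in WTNT rats 1 to 5 and 22.3, 40.3, 69.1, 22.0 and 43.5 RPM in TGNT rats 1 to 5. WTNT rats fell into 2 sets, with rats 1, 2 and 4 low and rats 3 and 5 high, and no WTNT rat lay between 8.45 and 63.6 RPM, where 4 of the 5 TGNT rats were found. The high WTNT rats were the lowest of their group in Rgs14, Necab2, Bok, Homer3 and Nrip3. Plagl1 came to 31.2 ± 33.7 RPM in WTNT and 39.4 ± 19.3 RPM in TGNT (n = 5 each, ± SD), and its log2 fold change of 0.35 had a standard error of 0.59 and a 95% interval from -0.91 to 1.61. That value was 1.01 with limma-trend on log2(RPM + 1) and moved between 0.04 without TGNT rat 3 and 0.89 without WTNT rat 5. Npy2r, the presynaptic Y2 receptor of neuropeptide Y that lowers glutamate release, measured 8.29, 3.68, 11.0, 5.97 and 15.5 RPM in WTNT and 12.1, 8.14, 12.4, 5.07 and 8.85 RPM in TGNT rats 1 to 5. WTNT rats 3 and 5 were the highest of their group in Npy2r, and WTNT rat 2 was the lowest of all rats. The groups overlapped (log2 fold change 0.10, standard error 0.32), and the sign of this value changed in 4 of 10 fits that left out a single rat.

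**Figure D1:**
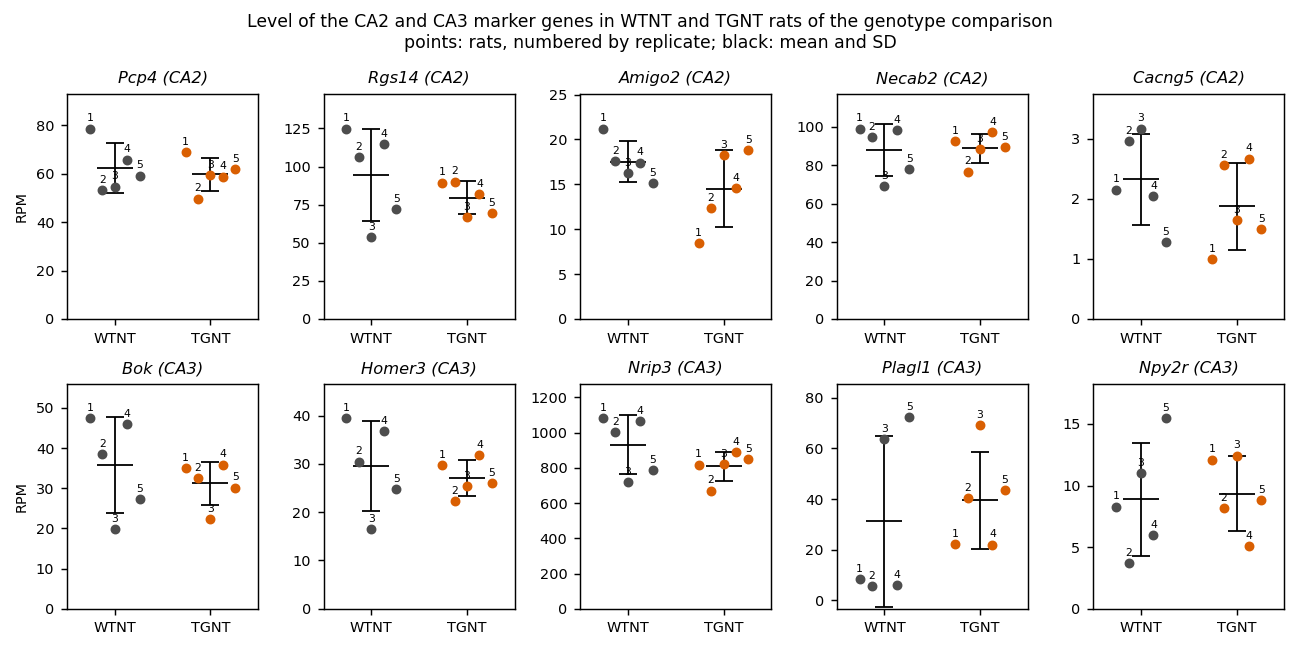
RPM of each marker gene (vertical axis, from 0 or below where the SD reaches further down) in 5 WTNT and 5 TGNT rats of the genotype comparison, with points for rats, numbers for replicates and black bars for mean and SD. WTNT rats 3 and 5 are low in Rgs14, Bok, Homer3 and Nrip3 and high in Plagl1, at 63.6 and 72.3 RPM.

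With edgeR's quasi-likelihood test, 0 of the 10 genes met both thresholds (adjusted p below 0.05, change of 1.5-fold or more), against 2 of all 17168 genes (0.0116%). At an unadjusted p under 0.05 there were 0 of 10, against 554 of all genes (3.23%). DESeq2, edgeR's likelihood ratio test and limma-trend also called 0 of the 10, and 2, 4 and 2 of all genes. Between TGNT and WTNT rats the fitted level was lower in TGNT for 7 of the 10 genes, against 48.0% of the 14634 genes with reads, and higher for Necab2, Plagl1 and Npy2r. The range of RPM of the groups overlapped for all 10 genes, whereas 0.601% of the genes with reads did not overlap. The median log2 fold change was -0.24 over the CA2 markers and -0.11 over the CA3 markers, against 0.01 over all genes with reads. Without WTNT rat 3, the count at an unadjusted p under 0.05 was 4 of 10, against 986 of all genes, with Rgs14 at -0.40, Bok at -0.35, Homer3 at -0.28 and Nrip3 at -0.29. The adjusted p of these 4 genes was 0.778 or more in that edgeR fit. Without WTNT rat 1, Rgs14 was at -0.12, Bok at -0.07 and Nrip3 at -0.14, and Amigo2 was at -0.11 without TGNT rat 1. Since several of the genes varied together across rats, the count of 7 does not stand for 7 independent observations. Without WTNT rat 1 the count was 5, with Pcp4 at 0.04 and Homer3 at 0.00, and Necab2 was at -0.06 without WTNT rat 3.

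In the treatment comparison the fitted level of all 10 genes was lower in TGTR than in TGNT rats. For all but Pcp4 and Npy2r the difference was no larger than the SD within groups on the log2 scale. Rgs14 measured 82.1, 151, 146 and 156 RPM in TGNT rats 1 to 4, and the 6 TGTR rats ranged from 79.9 to 142 RPM with a median of 121 RPM. TGNT rat 1 stood far below its group, TGTR rat 5 was the lowest TGTR rat, and the remaining TGTR rats lay below the remaining TGNT rats. Necab2 measured 113, 127, 134 and 133 RPM in TGNT rats 1 to 4 and ranged from 84.0 to 126 RPM in TGTR rats with a median of 118 RPM. The same TGNT rat 1 and TGTR rat 5 were the lowest of their groups. For Rgs14 the means were 134 ± 34.7 RPM (n = 4, ± SD) in TGNT and 116 ± 22.4 RPM (n = 6, ± SD) in TGTR, a difference of -0.20 in log2 (standard error 0.18, 95% interval -0.58 to 0.18, exact permutation test p = 0.343). Necab2 differed by -0.15 on the log2 scale (standard error 0.10, exact permutation test p = 0.171), and by -0.20 to -0.07 with a single rat left out.

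Pcp4 measured 53.4, 63.9, 62.4 and 55.6 RPM in TGNT rats 1 to 4, and TGTR rats ranged only from 51.8 to 54.0 RPM with a median of 53.6 RPM. TGNT rats 2, 3 and 4 lay above every TGTR rat, and TGNT rat 1 lay inside their range. The means were 58.8 ± 5.14 RPM (n = 4, ± SD) in TGNT and 53.2 ± 0.902 RPM (n = 6, ± SD) in TGTR, with a log2 fold change of -0.14 (standard error 0.05, 95% interval -0.26 to -0.03). Among the members it had the smallest unadjusted p, 0.0195 in edgeR's quasi-likelihood test and 0.0238 in the exact permutation test, with an adjusted p over all genes of 0.964. The SD of the TGTR rats was 1.70% of their mean, under the 3.87% that counting error alone gives at the depth of their 517 to 762 counts, so this spread understates the error of a single rat.

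Amigo2 ranged from 19.4 to 23.4 RPM in TGNT and from 15.7 to 26.2 RPM in TGTR rats, with TGTR rat 2 the highest of all 10 rats and a log2 fold change of -0.19 (standard error 0.13). Cacng5 ranged from 1.23 to 4.58 RPM in TGNT and from 2.19 to 3.98 RPM in TGTR rats. Its log2 fold change of -0.17 had a standard error of 0.29, and it was 0.07 without TGNT rat 3, the highest in Cacng5. For both genes the TGTR median lay below the TGNT median while the ranges overlapped.

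Bok measured 27.0, 55.9, 53.6 and 67.5 RPM in TGNT rats 1 to 4 and ranged from 24.9 to 61.1 RPM in TGTR rats with a median of 43.4 RPM. Homer3 measured 33.7, 79.2, 65.7 and 66.2 RPM in TGNT rats 1 to 4 and ranged from 32.5 to 63.7 RPM in TGTR rats with a median of 55.5 RPM. Nrip3 measured 442, 650, 702 and 700 RPM in TGNT rats 1 to 4 and ranged from 379 to 616 RPM in TGTR rats with a median of 539 RPM. In all 3 genes the pattern was that of Rgs14, with TGNT rat 1 and TGTR rat 5 lowest in their groups, and the other TGNT rats lay above every TGTR rat in Homer3 and Nrip3. The log2 fold changes were -0.21 for Bok, -0.19 for Homer3 and -0.23 for Nrip3, with standard errors of 0.24, 0.21 and 0.14. With a single rat left out, Bok ran from -0.42 to -0.05, Homer3 from -0.39 to -0.05, Nrip3 from -0.36 to -0.15 and Rgs14 from -0.37 to -0.11.

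Plagl1 ran the other way across rats. It measured 71.7, 16.6, 24.3 and 9.76 RPM in TGNT rats 1 to 4 and ranged from 6.42 to 43.8 RPM in TGTR rats with a median of 17.5 RPM. TGNT rat 1 was the highest of all, and TGTR rats 5 and 2 were next at 43.8 and 40.9 RPM. The log2 fold change was -0.40 (standard error 0.55), it turned to 0.44 without TGNT rat 1, and the direction between the groups therefore rests on that rat. Npy2r measured 15.9, 16.1, 13.7 and 8.38 RPM in TGNT rats 1 to 4 and ranged from 7.50 to 14.2 RPM in TGTR rats with a median of 9.55 RPM. TGNT rats 1 and 2 lay above every TGTR rat, and TGNT rat 4 lay among the lowest TGTR rats. Its log2 fold change was -0.45 (standard error 0.20, 95% interval -0.88 to -0.01), and the unadjusted p of 0.0437 in edgeR's quasi-likelihood test stood beside an exact permutation test p of 0.114 and an adjusted p of 0.990.

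**Figure D2:**
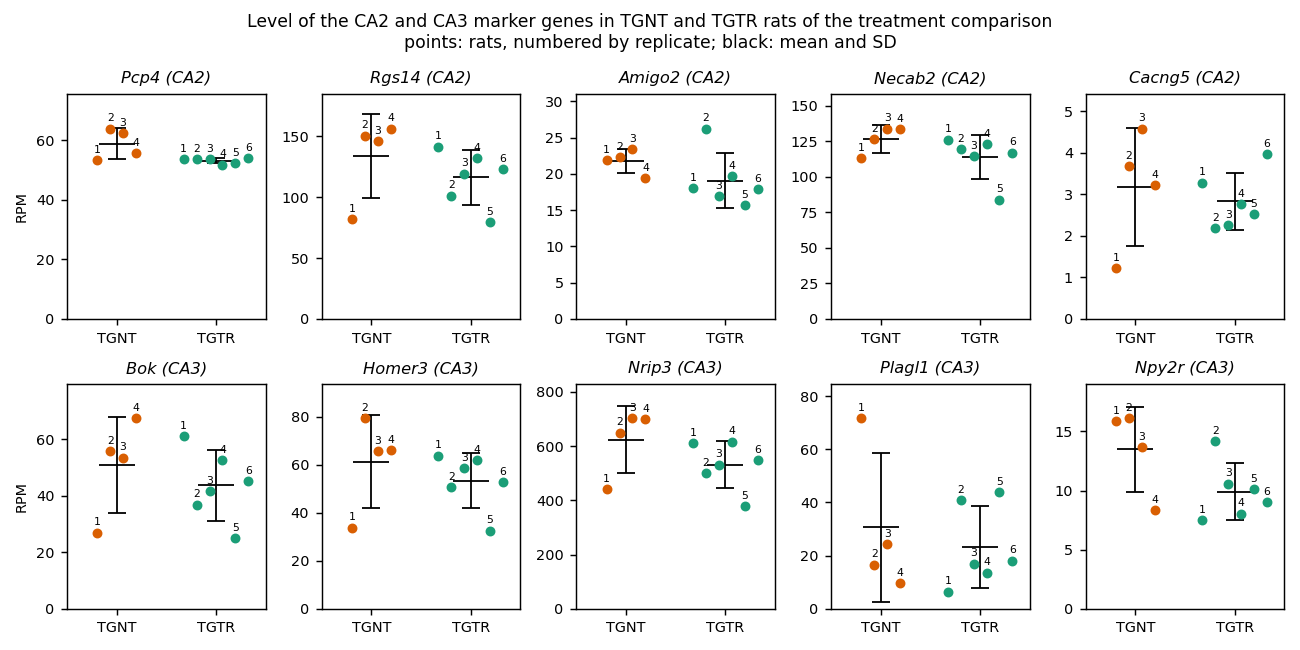
RPM of each marker gene (vertical axis, from 0) in 4 TGNT and 6 TGTR rats of the treatment comparison, with points for rats, numbers for replicates and black bars for mean and SD. TGNT rat 1 and TGTR rat 5 are low in Rgs14, Bok, Homer3 and Nrip3, and TGNT rat 1 is the highest in Plagl1 at 71.7 RPM.

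With edgeR's quasi-likelihood test 0 of the 10 genes met both thresholds between TGTR and TGNT rats, as did 0 of all genes (0%). At an unadjusted p under 0.05 there were 2 of 10, Pcp4 and Npy2r, against 843 of all genes (4.91%). With a single rat left out that count ran from 0, without TGNT rat 2 or TGNT rat 3 (571 and 654 of all genes), to 4 without TGNT rat 1 (1207 of all genes), and it was 0 with scaling by library size only (1036 of all genes). DESeq2 and edgeR's likelihood ratio test called 3 and 5 of all genes, limma-trend called 0, and each of these tools called 0 of the 10. A lower fitted level in TGTR was found for 10 of the 10, against 49.8% of the 14861 genes with reads. These are not 10 independent observations, since several of the genes varied together across rats here too. No member separated the groups in RPM, whereas 1.33% of the genes with reads did. The median log2 fold change was -0.17 over the CA2 markers and -0.23 over the CA3 markers, against 0.00 over all genes. TGNT rat 1 stood far from its group in Rgs14, and TGTR rat 5 from its group in Necab2. Without both rats, an alternative chosen after seeing the data, 0 of the 10 met both thresholds, 6 of 10 had an unadjusted p under 0.05, as did 1259 of all genes, and 9 of 10 were lower, with Rgs14 at -0.29, Homer3 at -0.29, Nrip3 at -0.29 and Plagl1 at 0.17. In that fit 15 of all genes met both thresholds.

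**Figure D3:**
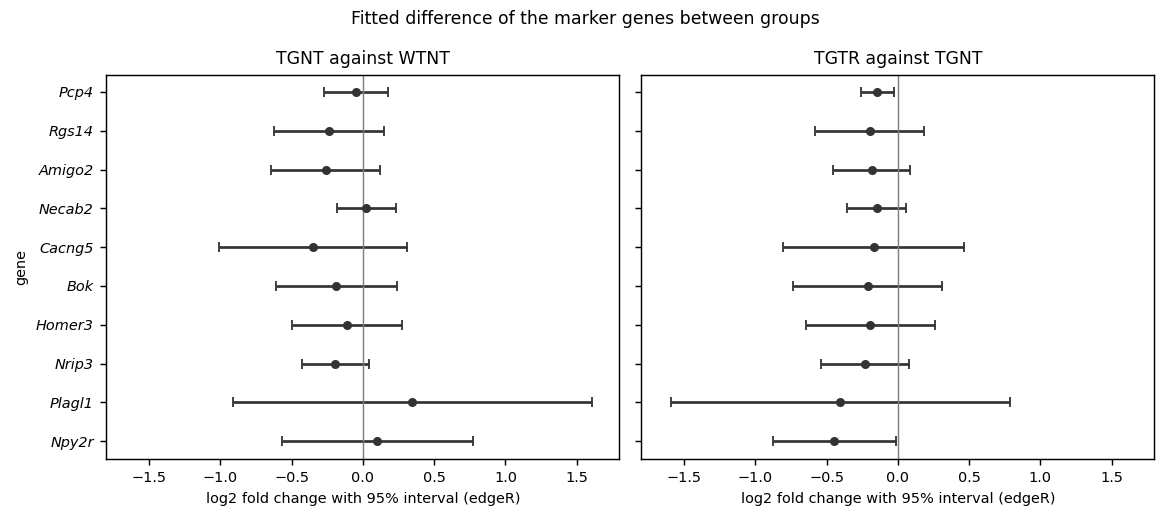
Log2 fold change of each marker gene (horizontal axis) with its 95% interval, from edgeR, for TGNT against WTNT on the left and TGTR against TGNT on the right, where values left of 0 are lower in the group named first. The interval spans 0 for all 10 genes on the left and for all but Pcp4 and Npy2r on the right, and it is widest for Plagl1.

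The spread between rats was large for some of these genes. Plagl1 differed 12.9-fold between the lowest and the highest rat of the genotype comparison and 11.2-fold in the treatment comparison. Among the 9770 genes with a mean of at least 5 RPM in the former table, 0.0614% varied over as large a ratio, and 0.278% of 10067 genes did in the latter. Npy2r differed 4.20-fold in the genotype comparison, a ratio that 0.614% of those genes reached, and 2.15-fold in the treatment comparison (4.69%). Rgs14 differed 2.32-fold and 1.96-fold (4.66% and 6.77% of genes), and Bok 2.38-fold and 2.71-fold (4.16% and 2.23%). Homer3 was close to Bok, at 2.39-fold and 2.44-fold. By contrast Necab2 differed 1.43-fold and 1.60-fold (44.0% and 16.9% of genes), and Pcp4 1.58-fold and 1.23-fold (27.1% and 67.6%). Nrip3, a CA3 marker, differed 1.61-fold and 1.85-fold (24.7% and 8.52%). Cacng5, a CA2 marker on few counts, differed 3.17-fold and 3.74-fold (1.39% and 1.08%). Markers of the same field thus differed in spread, as Plagl1 and Nrip3 did in CA3 and Rgs14 and Pcp4 in CA2.

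Correlations across the 10 rats of each table were computed on log2(RPM + 1) after subtracting the mean of each group, with exact permutation of the rats within groups and adjustment over the 45 pairs of a table. In the genotype comparison 5 of 45 pairs had an adjusted p under 0.05, and in the treatment comparison 13 did. All 5 pairs of the genotype comparison were positive and joined Rgs14, Necab2, Bok, Homer3 and Nrip3 to each other. Of the 13 pairs of the treatment comparison, 9 joined the same genes and were positive. The other 4 were negative and joined Plagl1 to Rgs14, Bok, Homer3 and Nrip3. Of all genes with a mean of at least 5 RPM, 7.48% had r of -0.8 or below with Plagl1 there. Opposition to Plagl1 was therefore not particular to these markers. Among Rgs14, Necab2, Bok, Homer3 and Nrip3, r of the 10 pairs ran from 0.713 to 0.984 in the genotype comparison. In the treatment comparison it ran from 0.811 to 0.984.

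Rgs14 and Bok, the markers of different fields, gave r = 0.956 in the genotype comparison (exact permutation p = 0.000625, adjusted p = 0.00781) and r = 0.984 in the treatment comparison (exact permutation p = 5.79e-05, the smallest that the arrangements can give, adjusted p = 0.00174). Spearman's rho was 0.879 (exact permutation p = 0.00535) and 0.988 (exact permutation p = 5.79e-05). Without the 2 rats farthest from the median of Rgs14, r was 0.891 and 0.934. Rgs14 and Nrip3 were at r = 0.713 (exact permutation p = 0.0695) in the genotype comparison and 0.977 (exact permutation p = 0.000752) in the treatment comparison, with rho of 0.709 (exact permutation p = 0.0881) and 0.867 (exact permutation p = 0.00683). Without the 2 farthest rats r was 0.297 in the genotype comparison, where the relation rests on those rats, and 0.878 in the treatment comparison. Necab2 and Homer3 gave r = 0.961 (exact permutation p = 6.94e-05, rho 0.988 at the same p) in the genotype comparison and 0.817 (exact permutation p = 0.0181, rho 0.539 at p = 0.117) in the treatment comparison. In the latter r was -0.06 without the 2 farthest rats, TGTR rat 5 and TGNT rat 1, so it rests on them. Rgs14 and Necab2 gave r = 0.776 in the genotype comparison (exact permutation p = 0.0372, rho 0.770 at p = 0.0539) and 0.811 in the treatment comparison (exact permutation p = 0.00723, adjusted p = 0.0250, rho 0.636 at p = 0.0573). Without the 2 farthest rats these were 0.419 and 0.278, so this relation too rests on them.

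Within the CA2 markers, Amigo2 gave r = -0.04 and 0.00935 with Rgs14, and -0.36 and -0.72 without the 2 farthest rats. It had no pair with an adjusted p under 0.05 in either table. Cacng5 lay near 0 with Rgs14 in the genotype comparison (r = -0.03) and at 0.762 in the treatment comparison (exact permutation p = 0.0510, adjusted p = 0.124), on few counts. Pcp4 gave r = 0.434 and 0.525 with Rgs14, neither past the threshold. Over all genes with a mean of at least 5 RPM, 4.72% had r of 0.8 or more with Rgs14 in the genotype comparison and 10.2% in the treatment comparison. High correlations with Rgs14 were therefore common in these tables and are not particular to CA2 or CA3 markers.

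**Figure D4:**
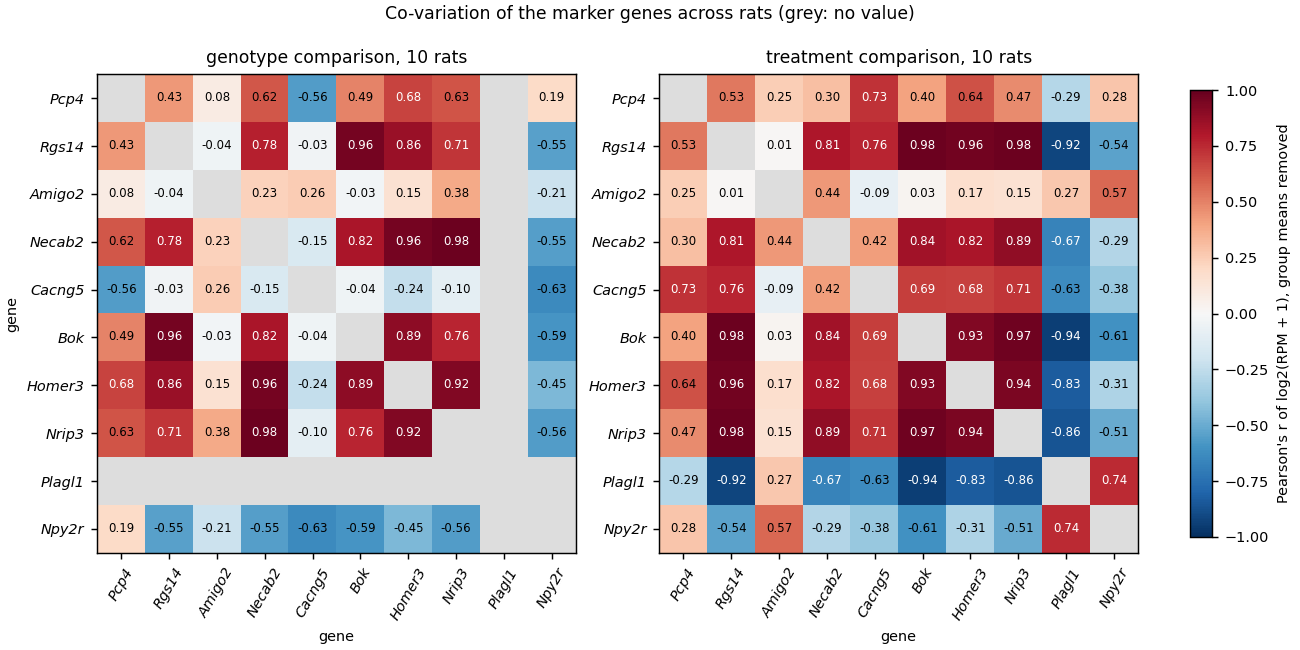
Pearson's r of log2(RPM + 1) with group means removed, for each pair of marker genes over 10 rats, in the genotype comparison on the left and the treatment comparison on the right, from blue at -1 to red at 1. Rgs14, Necab2, Bok, Homer3 and Nrip3 form a block of positive values in both panels. In the grey fields in the row of Plagl1 on the left no value is shown, since its WTNT rats fell into 2 sets.

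Plagl1 was opposite to the CA3 markers Bok, Homer3 and Nrip3. In the treatment comparison r was -0.94 between Plagl1 and Bok (exact permutation p = 0.000116, adjusted p = 0.00174, rho -0.95 at an exact permutation p of 0.000174) and -0.92 between Plagl1 and Rgs14 (exact permutation p = 0.000116, rho -0.94 at an exact permutation p of 0.000174). Both held without the 2 farthest rats, at -0.95 and -0.93. For the genotype comparison no r is given with Plagl1, since WTNT rats lay in 2 sets, and none of its pairs there had an adjusted p under 0.05. WTNT rats 3 and 5 also stood at the low end of Rgs14, Bok, Homer3 and Nrip3, whose r values in that table are weighted by these rats too. There, rats 3 and 5 were the highest of the WTNT rats in Plagl1 and the lowest of them in Bok. Among TGNT rats the order of Plagl1 from the highest, rats 3, 5, 2, 1 and 4, was the order of Bok from the lowest. Plagl1 and Npy2r were at r = 0.743 in the treatment comparison (exact permutation p = 0.0308, adjusted p = 0.0867, rho 0.636 at an exact permutation p of 0.0740), which did not pass the adjustment, and r was 0.698 without the 2 farthest rats. Npy2r had no pair with Rgs14, Necab2, Bok, Homer3 or Nrip3 at an exact permutation p under 0.05 in either table. The CA3 list thus held genes that ran in opposite directions from rat to rat, and its mean is not a level of CA3.

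**Figure D5:**
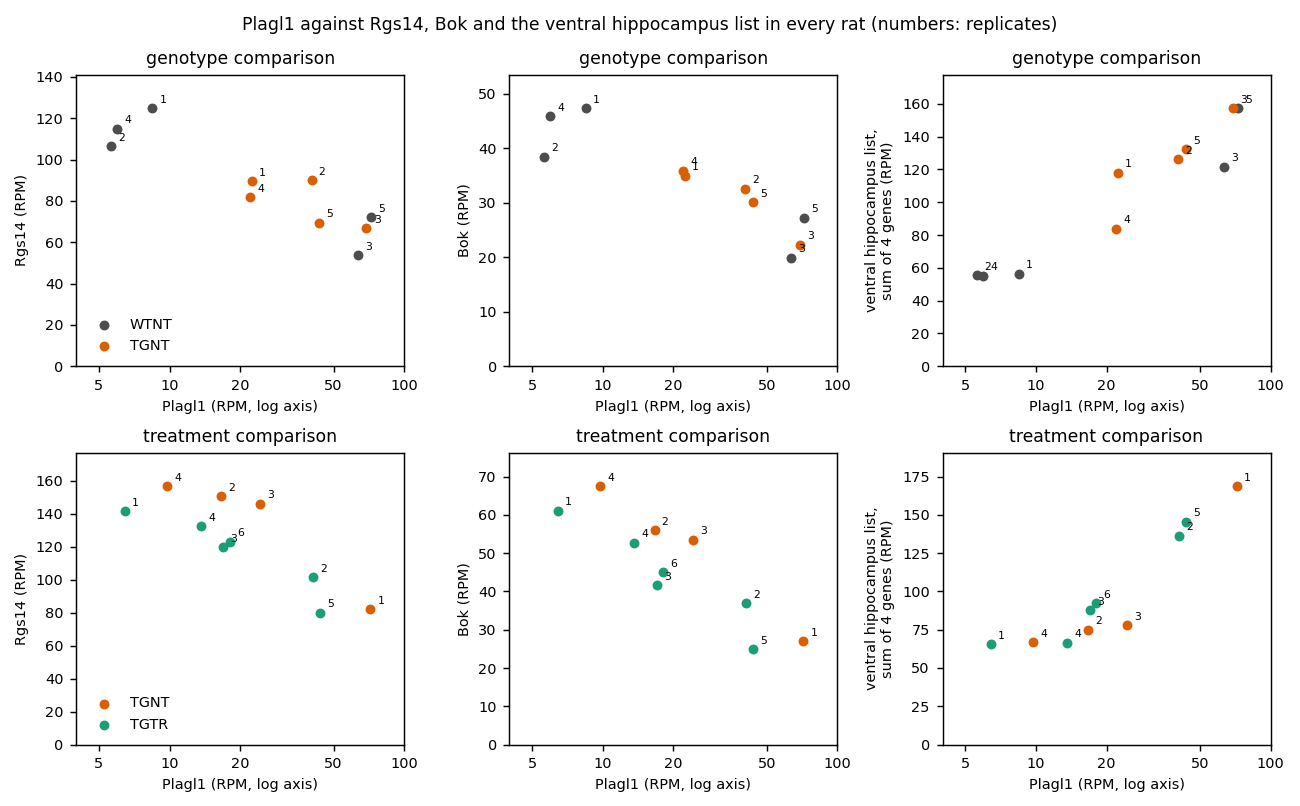
Rgs14 and Bok (RPM) and the summed RPM of 4 ventral hippocampus genes on the vertical axes against Plagl1 (RPM, log axis) in every rat, with the genotype comparison above and the treatment comparison below, colours for groups and numbers for replicates. Rats with high Plagl1 have low Rgs14 and Bok and high ventral genes in both rows, and WTNT rats lie at either end with none between 8.45 and 63.6 RPM.

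Genes that mark the ventral hippocampus (Trhr, Lypd1, Nr2f2 and Dcn) varied with Plagl1. Their summed level was 56.4, 55.6, 122, 55.3 and 157 RPM in WTNT rats 1 to 5 and 118, 126, 157, 84.0 and 132 RPM in TGNT rats 1 to 5 of the genotype comparison. WTNT rats 3 and 5, the high ones in Plagl1, were the high ones here, and TGNT rats had the same order in both. In the treatment comparison the sum was 169, 74.9, 77.9 and 66.8 RPM in TGNT rats 1 to 4, and TGTR rats 2 and 5 reached 136.5 and 146 RPM while the others stayed between 65.7 and 92.4 RPM. There the mean log2(RPM + 1) of the list correlated with Plagl1 at r = 0.968 (exact permutation p = 5.79e-05, adjusted p = 0.00434 over 150 relations of 15 lists and 10 genes, rho 0.952 at the same exact p) and with Rgs14 at r = -0.97 (exact permutation p = 0.000116, adjusted p = 0.00434, rho -0.95 at an exact permutation p of 0.000289). Without the 2 rats farthest from the median of the list these were 0.936 and -0.98. The list was chosen with earlier results of these data known. Its gene Nr2f2 was among the genes most like Plagl1 across rats, of 9629 searched (r = 0.961 in the treatment comparison). In the genotype comparison the list was at r = -0.80 with Rgs14 (exact permutation p = 0.0411, adjusted p = 0.167), which did not pass the adjustment. Npy2r did pass there, at r = 0.876 (exact permutation p = 0.00271, adjusted p = 0.0427, rho 0.879), and r was 0.794 without the 2 farthest rats. In the treatment comparison Npy2r was at r = 0.673 with the list (exact permutation p = 0.0583, adjusted p = 0.141). No r with Plagl1 is given for the genotype comparison, since its WTNT rats fell into 2 sets. All 4 of these genes were higher in TGNT than in WTNT (median log2 fold change 0.50) and 2 of 4 were higher in TGTR than in TGNT, with 0 of 4 at an unadjusted p under 0.05 in either, and none was at 0 in any rat. Lypd1, the most abundant, measured 54.1 ± 9.50 RPM in TGNT and 42.0 ± 18.0 RPM in WTNT rats (n = 5 each, ± SD). Whether the part of the hippocampus sampled differed between rats was not tested.

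Markers of dentate granule cells varied with Rgs14, Bok and Homer3 in both tables, and in the treatment comparison lists of other cells did so too. Their summed level (Prox1, C1ql2, Tdo2, Trpc6 and Plk5, since Dsp, the other gene listed, was not in the tables) was 288, 231, 78.2, 272 and 144 RPM in WTNT rats 1 to 5 and 262.5, 147, 148, 168 and 186 RPM in TGNT rats 1 to 5. WTNT rats 3 and 5 were thus low in these genes too. In the genotype comparison the list correlated with Rgs14 at r = 0.928 (exact permutation p = 0.00285, adjusted p = 0.0427, rho 0.903 at an exact permutation p of 0.0124), and r was 0.789 without the 2 rats farthest from the median of the list. In the treatment comparison r was 0.878 (exact permutation p = 0.00382, adjusted p = 0.0260, rho 0.770 at an exact permutation p of 0.0236) and 0.591 without the 2 farthest rats. Prox1, the most abundant, measured 130 ± 60.4 RPM in WTNT and 115 ± 34.5 RPM in TGNT rats (n = 5 each, ± SD), and Tdo2 was at 0 in at least 1 rat of each table. Neither comparison had a gene of this list at an unadjusted p under 0.05, and its part in the values of Rgs14 was not tested.

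Choroid plexus genes marked TGTR rat 5, the lowest TGTR rat in Rgs14, Necab2, Bok, Homer3 and Nrip3. The sum of 6 of these genes was 2821 RPM in that rat and 134 RPM in TGTR rat 6, against 3.39 to 6.00 RPM in the other TGTR rats and 7.80 to 16.8 RPM in TGNT rats. Ttr, the most abundant, stood at 2501 RPM in TGTR rat 5, and no gene of the list was at 0 in the treatment comparison. All 6 of 6 were higher in TGTR, and Ttr (log2 fold change 6.05, standard error 2.29) and Kl (4.91, standard error 1.90) had an unadjusted p under 0.05. This direction rests on TGTR rats 5 and 6, since the sums of the other 4 TGTR rats lay below those of every TGNT rat. Genes of the thalamus and habenula were also higher in TGTR for 5 of 5, with Slc17a6 at 31.0 ± 5.49 RPM (n = 6, ± SD) against 17.0 ± 3.81 RPM (n = 4, ± SD), a log2 fold change of 0.87 and an adjusted p of 0.400 in edgeR's quasi-likelihood test. Prkcd of that list had a log2 fold change of 0.59. Genes of the cortex and the striatum were each higher for 5 of 5, in the treatment comparison, among them Tbr1 (0.46), Drd2 (0.78) and Ppp1r1b (0.18) at an unadjusted p under 0.05. Between TGNT and WTNT rats no gene of these 4 lists had an unadjusted p under 0.05, with 2 of 6 choroid plexus, 4 of 5 thalamus and habenula, 0 of 5 cortex and 2 of 5 striatum genes higher in TGNT, and Clic6 and Folr1 at 0 in at least 1 rat. Pcp4, lower in TGTR by the fit, correlated with the striatum list at r = -0.86 in the treatment comparison (adjusted p = 0.0344 by exact permutation, rho -0.82, r = -0.49 without the 2 farthest rats) and -0.59 in the genotype comparison (adjusted p = 0.223). With the thalamus and habenula list it was at -0.51 (adjusted p = 0.213) and -0.83 (adjusted p = 0.0312, both by exact permutation). The part of this tissue in the lower values of Pcp4, Rgs14 and Nrip3 in TGTR rats was not tested.

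Among the 150 relations between lists and members of the treatment comparison, 40 had an adjusted p under 0.05, against 10 in the genotype comparison. Rgs14 correlated there with the lists of neurons (r = 0.921, adjusted p = 0.0260, rho 0.709), oligodendrocytes (0.885, 0.0344, rho 0.673), astrocytes (0.804, 0.0147, rho 0.867) and CA1 (0.796, 0.0122, rho 0.879), all by exact permutation. Plagl1 ran opposite to the same lists, with r of -0.79, -0.83, -0.77 and -0.91 and adjusted p of 0.0484, 0.0415, 0.0395 and 0.00434 by exact permutation. Without the 2 farthest rats of each list r was 0.682, 0.848, 0.834 and 0.708 for Rgs14, and -0.54, -0.65, -0.91 and -0.88 for Plagl1. None of the 4 relations of Rgs14 had an adjusted p under 0.05 in the genotype comparison. The relations of Rgs14 and Plagl1 to the dentate and ventral lists are therefore not particular to those lists in the treatment comparison. Map2, the most abundant of 6 neuron genes, measured 3549 ± 251 RPM in WTNT and 3500 ± 234 RPM in TGNT rats (n = 5 each, ± SD), and 4 of 6 were lower in TGNT. In the treatment comparison 5 of 6 were lower in TGTR, with a median log2 fold change of -0.03 and 0 at an unadjusted p under 0.05. CA1 markers were lower in TGNT for 4 of 5, with Man1a1 at 0.21 the only one at an unadjusted p under 0.05, and higher in TGTR for 4 of 5. Wfs1, the most abundant CA1 marker, measured 260 ± 93.4 RPM in WTNT and 192 ± 86.4 RPM in TGNT rats (n = 5 each, ± SD). Interneuron genes were higher for 4 of 5 in TGNT and 5 of 5 in TGTR, with Sst at 0.27 at an unadjusted p under 0.05, and correlated with Homer3 at r = -0.98 in the genotype comparison (exact permutation p = 6.94e-05, adjusted p = 0.00347, rho -0.98 at the same exact p, and -0.96 without the 2 farthest rats). That relation was at r = -0.47 (exact permutation p = 0.236) in the treatment comparison.

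Oligodendrocyte genes were lower in TGNT for 7 of 7, with Mbp at -0.38 and Mobp at -0.38 at an unadjusted p under 0.05, and higher in TGTR for 7 of 7 with none under it. Astrocyte genes had 3 of 6 lower in TGNT and 6 of 6 lower in TGTR, and microglia genes 0 of 6 and 4 of 6, all without a gene at an unadjusted p under 0.05. Slc1a2, the most abundant astrocyte gene, measured 1389 ± 50.6 RPM in WTNT and 1375 ± 41.4 RPM in TGNT rats (n = 5 each, ± SD).

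Further genes of CA2 were Ptpn5, Ntf3, Fgf2, Avpr1b, Actn2, Stard5 and Tgfb1i1. None of these 7 had an unadjusted p under 0.05 in the genotype comparison, where 5 were lower in TGNT. In the treatment comparison 4 of 7 were lower in TGTR, and Actn2, an actinin of dendritic spines, measured 41.7 ± 5.19 RPM (n = 6, ± SD) in TGTR and 52.9 ± 7.88 RPM (n = 4, ± SD) in TGNT rats, a log2 difference of -0.34 and an adjusted p of 0.957 in edgeR's quasi-likelihood test. Ptpn5, the phosphatase STEP and the most abundant of them, was at 130 ± 4.95 RPM in TGTR (n = 6, ± SD) and 129 ± 7.65 RPM in TGNT (n = 4, ± SD). Further genes of CA3 were Grik4, Pvrl3, Cpne4, Prss35, St18, Coch and Iyd, of which 4 of 7 were lower in TGNT and 6 of 7 lower in TGTR. Pvrl3, also called Nectin3, an adhesion molecule of mossy fibre synapses, measured 38.0 ± 2.87 RPM (n = 6, ± SD) in TGTR and 45.3 ± 5.07 RPM (n = 4, ± SD) in TGNT rats, a log2 difference of -0.25 and an adjusted p of 0.957. Prss35 gave -0.29. Pcp4 correlated with this list at r = 0.907 in the treatment comparison (adjusted p = 0.0192 by exact permutation, rho 0.939, r = 0.957 without the 2 farthest rats) and 0.678 in the genotype comparison (adjusted p = 0.207 by exact permutation). Avpr1b, Coch and Iyd were at 0 in at least 1 rat.

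Relatives and partners of the members were followed as a list of 24 genes. In the genotype comparison 13 were higher and 11 lower in TGNT, with a median log2 fold change of 0.00 and 0 at an unadjusted p under 0.05. The treatment comparison had the same split of 13 and 11, and 4 genes had an unadjusted p under 0.05, all higher in TGTR. Homer1 measured 149 ± 6.45 RPM (n = 6, ± SD) against 131 ± 6.52 RPM (n = 4, ± SD), and Homer2 34.1 ± 4.12 RPM against 28.5 ± 4.34 RPM, with log2 fold changes of 0.19 and 0.26. Necab3 measured 22.8 ± 2.79 RPM (n = 6, ± SD) in TGTR and 15.7 ± 2.98 RPM (n = 4, ± SD) in TGNT rats, a log2 difference of 0.54 and an adjusted p of 0.858, and Cacng3 gave 0.29. Relatives of Cacng5 went both ways, with Cacng4 at -0.14 and Cacng8 at -0.13. None of these differences passed the adjustment.

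The genes most like the mean of the CA2 markers across rats, by the lower of the r values of the 2 tables among 9629 genes, were Fgfr1 (0.915 and 0.906 in the genotype and the treatment comparison), Eif4a3 (0.923 and 0.900), Cacna1a (0.892 and 0.891), Adamts3 (0.879 and 0.907) and Cdo1 (0.876 and 0.893). For the mean of the CA3 markers they were Itm2c (0.819 and 0.869), Syn2 (0.832 and 0.814), Tcea2 (0.869 and 0.760), Pfkl (0.759 and 0.845) and Sh3gl2 (0.758 and 0.848). The mean of the CA3 markers includes Plagl1, which ran opposite to Bok, Homer3 and Nrip3. Rgs14 by itself, chosen after its values were seen, was most like Sec14l1 (0.973 and 0.979), Arhgef25 (0.970 and 0.996), Hpca (0.967 and 0.992), Snn (0.967 and 0.986) and Slc30a3 (0.962 and 0.984). Hpca encodes the calcium sensor hippocalcin, and Slc30a3 the zinc transporter of synaptic vesicles that is rich in mossy fibres. Among the 5 genes most opposite to Rgs14 was Necab1 (-0.96 and -0.92), a relative of Necab2. These likenesses are descriptions over 10 rats per table, picked from 9629 genes, with no test.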

How the data were processed

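Each of the 20 libraries came from a single rat. The authors deposited, per comparison, a table of estimated counts per gene symbol from RSEM, not normalized, and a table of signal in RPM that they scaled with TMM factors. The submitters' processing notes name bcl2fastq 2.17, Bowtie2 2.1.0, RSEM 1.2.15, edgeR and build rn6. Samples were matched to columns by title, and 0 columns had no sample.

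After rounding, estimated counts entered edgeR 4.0.16 under R 4.3.3 (TMM, quasi-likelihood test, no filter on low counts, so all 10 members entered), each comparison by itself, with Benjamini-Hochberg adjustment over 17168 genes. A gene was called when its adjusted p was below 0.05 and it differed 1.5-fold or more. Tests were two-sided. Single genes were also tested by exact permutation of group means. Alternatives were DESeq2 1.42.0, edgeR's likelihood ratio test and limma-trend (limma 3.58.1) on log2(RPM + 1) and log2(RPM + 0.1). Further settings in edgeR were RLE size factors in place of TMM, library size only, a filter on low counts (filterByExpr) and the replicate block. Fits that left out rats are given in the closing section. Correlations used Python 3.11.15 with numpy 2.4.6, pandas 2.3.3 and scipy 1.17.1. Promoters came from RefSeq, GRCr8.

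The members and gene lists were chosen with earlier results of these data known. Named are all 10 members, of each other list the most abundant gene and any with an unadjusted p under 0.05 (a few of these are left out), the 5 genes most like each set of markers, and rats far from their group by Dixon's test.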

Additional observations from a re-analysis of the deposited data

Results flagged for a closer look

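Among 100 groups tested, 40 for single members and 60 for gene lists, 4 held a rat far from the others by Dixon's test, and chance gives about 5. In TGNT rats of the treatment comparison, Rgs14 was 82.1 RPM in rat 1, and the next lowest rat had 146 RPM. In TGTR rats, Necab2 was 84.0 RPM in rat 5, and the next lowest had 114 RPM. Both rats were also the lowest of their groups in Bok, Homer3 and Nrip3, which varied with Rgs14. TGNT rat 1 of the genotype comparison stood high in the dentate gyrus list, where the mean log2(RPM + 1) was 4.21 and the next highest 3.78. TGNT rat 3 of the treatment comparison stood low in the cortex list, at 4.81 against 4.94 in the next rat.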

How the results depend on the processing

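In every alternative run 0 of the 10 members were called in either comparison. Between TGNT and WTNT rats 2 of all genes were called under every setting except edgeR's likelihood ratio test, which gave 4, and fits that each left out a rat gave 2 throughout. Between TGTR and TGNT rats, where 0 were called, DESeq2 gave 3, edgeR's likelihood ratio test 5, the replicate block 1, and leaving out both TGNT rat 1 and TGTR rat 5, chosen after seeing the data, 15. The cause was not tested. Fits without a single rat gave 0.

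The direction of the members held in 80 of 80 values of the other planned settings in the genotype comparison and, with the setting added after seeing the data, 89 of 90 in the treatment comparison. With single rats left out, log2 fold changes between TGNT and WTNT ran from -0.10 to 0.0427 for Pcp4, from -0.0636 to 0.0652 for Necab2, from -0.28 to 0.00345 for Homer3 and from -0.13 to 0.39 for Npy2r, so their signs are not settled. Without a change of sign, Rgs14 ran from -0.40 to -0.12, Bok from -0.35 to -0.07 and Amigo2 from -0.39 to -0.11. Between TGTR and TGNT rats log2 fold changes ran from -0.43 to 0.0659 for Cacng5 and from -0.69 to 0.44 for Plagl1, which was 0.17 without both rats. The members lower in TGNT numbered 5 to 8, and those lower in TGTR 9 or 10. Pairs of members past the adjusted threshold numbered 4 to 10 in the genotype and 7 to 15 in the treatment comparison when single rats were left out, where 9 rats also allow fewer arrangements.

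The labels do not tie the replicate numbers to litters or days. Deviations of rats with the same number correlated at 0.430, -0.15, 0.199, 0.137 and -0.26 over genes in the genotype comparison. For replicates 1 to 4 of the treatment comparison they correlated at -0.64, 0.00316, -0.10 and 0.183. Rats of different numbers were not correlated for reference, so these values cannot decide whether the numbers pair rats. With the number as a replicate block, Plagl1 was at 0.82 between TGNT and WTNT rats (unadjusted p 0.0445, adjusted p 1 in edgeR), Homer3 was at -0.01 between TGTR and TGNT rats, and no member was called. Between TGTR and TGNT rats that block also put Rgs14 at -0.08, Bok at -0.05, Necab2 at -0.06 and Nrip3 at -0.12. There Pcp4 was at -0.14 (unadjusted p 0.0639 in edgeR) and Npy2r at -0.42 (unadjusted p 0.0386 in edgeR). Groups of 4 to 6 rats leave wide intervals, from -0.63 to 0.15 for Rgs14 between TGNT and WTNT rats, and Cacng5, at 8 to 61 counts per rat, is limited by depth.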
